A study of Mus musculus with 24 samples.

Results

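8 genes of the tumour necrosis factor (TNF) superfamily were followed on 24 expression arrays of spleen dendritic cells: the ligands Tnfsf9, Cd70, Tnfsf4, Tnfsf13b and Ltb and the receptors Tnfrsf4, Tnfrsf1b and Tnfrsf1a. They are 8 of the 19938 genes that had a probe set with that gene as its only symbol, and were chosen by name, each being read by 1 probe set. The cells were conventional dendritic cells (cDC), the antigen-presenting cells that prime T cells, sorted as CD11c+ cells from collagenase-digested spleens of female mice aged 8 to 10 weeks. CpG-A, an oligonucleotide ligand of Toll-like receptor 9, or PBS was given by injection 12 h before the sort to NOD mice, a strain prone to autoimmune diabetes, and to C57BL/6 (B6) control mice. Sorting into CD8+ and CD11b+ cDC gave 8 groups of 3 arrays: NOD CD8+ with CpG, NOD CD8+ with PBS, B6 CD8+ with CpG, B6 CD8+ with PBS, and the same 4 groups of CD11b+ cDC. The labels do not say whether the 3 arrays of a group came from separate mice or from pools, so the p-values measure the spread between arrays, which may be technical. In sorted bulk RNA, a change in the share of cells that carry a transcript cannot be told apart from a change in the amount per cell.

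TNF superfamily ligands are mostly trimeric membrane proteins that engage receptors on a neighbouring cell, and the receptors signal through TRAF adaptors to NF-kB or, where they carry a death domain, to cell death. On dendritic cells, 4-1BB ligand (Tnfsf9), CD70 and OX40 ligand (Tnfsf4) deliver co-stimulation to T cells that carry 4-1BB, CD27 and OX40, and BAFF (Tnfsf13b) sustains B cells. Lymphotoxin beta (Ltb) joins lymphotoxin alpha in a membrane heterotrimer that binds the lymphotoxin beta receptor, which CD11b+ spleen cDC need for their own maintenance. OX40 (Tnfrsf4) is best known from activated T cells, whereas TNF receptor 1 (Tnfrsf1a) is expressed by most cells and TNF receptor 2 (Tnfrsf1b) mainly by leukocytes.

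Values below are log2 expression values, and differences are log2 differences ± their standard error from limma, each group having n = 3 arrays. "Rose", "fell", "higher" and "lower" as a call stand for an adjusted p under 0.05 in that fit, adjusted over all 11228 genes tested. A gene was tested if it lay above its array's own median, which ran from 5.79 to 5.87, on at least 3 of the 24 arrays. Tnfsf9, Ltb, Tnfrsf4, Tnfrsf1b and Tnfrsf1a were above it on all 24 arrays and Cd70 on 6, the CpG-treated CD8+ arrays of both strains. Because Cd70 entered the test only through those arrays, its difference from the other groups is partly set by the filter, and its calls are therefore also given without a filter. Tnfsf4 and Tnfsf13b were above the median on 0 of 24 arrays and were not tested.

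By group means, the markers of each label were higher in the cells sorted under that label. The 10 CD8+ cDC markers averaged 9.35 to 10.70 over the CD8+ groups and 7.47 to 7.66 over the CD11b+ groups, while the 8 CD11b+ cDC markers averaged 6.34 to 7.26 over the CD8+ groups and 7.56 to 9.29 over the CD11b+ groups. Markers of other cells were not flat. The 11 NK cell markers averaged 9.66 on CpG-treated B6 CD11b+ arrays, where 11 of 11 lay above the array median, and 5.68 to 6.84 in the other 7 groups. The 9 measured B cell markers averaged 7.33 to 8.25 in the 4 NOD groups and 6.27 to 6.93 in the 4 B6 groups. T cell markers stayed between 5.36 and 5.97. The 3 CpG-treated NOD CD8+ arrays also lay apart from each other, at 53.5, 32.5 and 17.4 on the first principal component, and their mean correlations with the rest of their group were the lowest of all arrays, at 0.95 to 0.971 against 0.979 to 0.988 elsewhere.

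**Figure D1:**
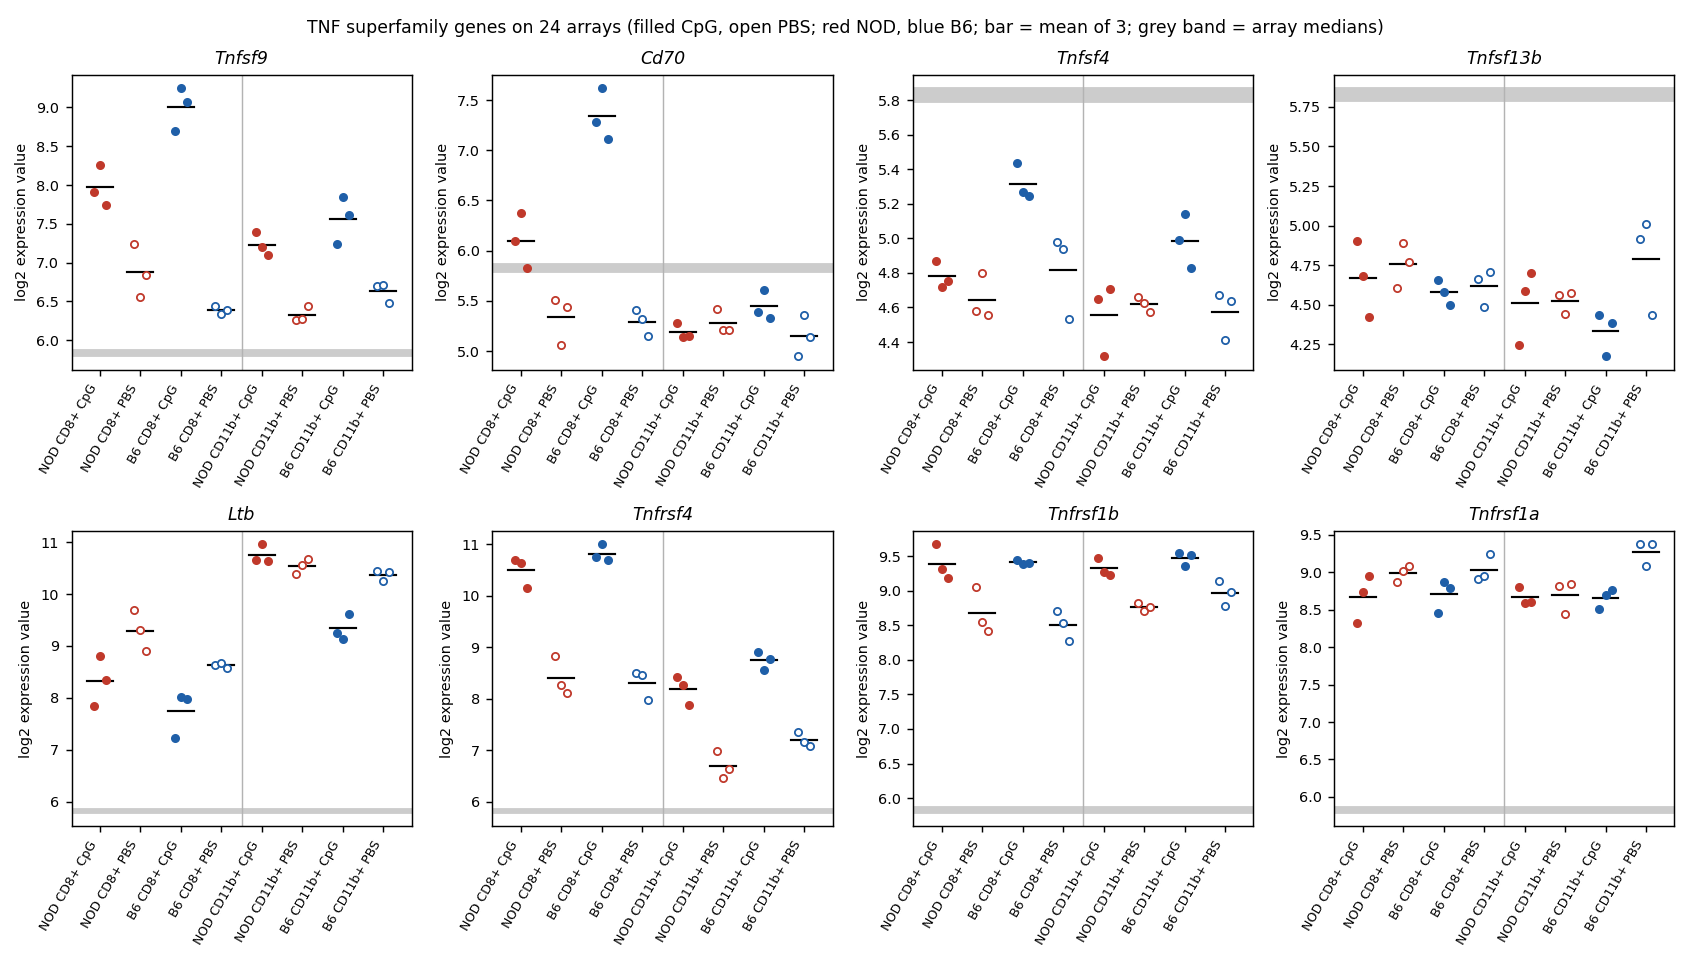
Log2 expression value of each gene on every array (points), with the mean of the 3 arrays of a group (bar). Filled points are CpG and open points PBS, red is NOD and blue B6, and the grey band spans the array medians of 5.79 to 5.87. Tnfsf9 and Cd70 peaked in CpG-treated B6 CD8+ cDC at means of 9.01 and 7.34, and Tnfsf4 and Tnfsf13b lay below the band on every array.

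The ligand Tnfsf9 rose after CpG in every subset and strain, and most in B6 CD8+ cDC. It read 8.70, 9.25 and 9.08 in CpG-treated B6 CD8+ cDC, against 6.44, 6.33 and 6.39 in PBS-treated ones. In NOD CD8+ cDC it read 7.91, 8.25 and 7.75 with CpG, against 7.24, 6.56 and 6.84 with PBS. The CpG and PBS arrays did not overlap in either strain, and all 3 B6 CpG arrays lay above all 3 NOD CpG arrays. In CD11b+ cDC it read 7.39, 7.20 and 7.10 with CpG, against 6.26, 6.27 and 6.44 with PBS in NOD mice, and 7.24, 7.85 and 7.61 with CpG, against 6.70, 6.71 and 6.48 with PBS in B6 mice. The rise was 2.62 ± 0.17 in B6 CD8+ cDC, a 6.15-fold change (adjusted p = 2.45e-11), and 1.09 ± 0.17 or 2.13-fold in NOD CD8+ cDC (adjusted p = 2.92e-05). CD11b+ cDC of the 2 strains gained much the same, 0.91 ± 0.17 in NOD (adjusted p = 0.000527) and 0.94 ± 0.17 in B6 (adjusted p = 0.000145). The CpG change of CD8+ cDC was smaller in NOD than in B6 (-1.53 ± 0.25, adjusted p = 0.000639). In CD11b+ cDC the same difference between strains was -0.03 ± 0.25, with a 95% interval of -0.54 to 0.48 (adjusted p = 0.969).

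Cd70, the ligand of CD27, was seen above the array median only in CpG-treated CD8+ cDC. It read 7.28, 7.62 and 7.12 in CpG-treated B6 CD8+ cDC, against 5.41, 5.32 and 5.15 with PBS, and 6.10, 6.38 and 5.83 in CpG-treated NOD CD8+ cDC, against 5.51, 5.06 and 5.44 with PBS. The 12 CD11b+ arrays spanned 4.95 to 5.61 all under the array median. The rise was 2.05 ± 0.16 or 4.13-fold in B6 CD8+ cDC (adjusted p = 3.18e-10, and 1.25e-10 without a filter) and 0.76 ± 0.16 or 1.70-fold in NOD CD8+ cDC (adjusted p = 0.000504, and 0.000556 without a filter). In CD11b+ cDC the difference was -0.09 ± 0.16 in NOD (adjusted p = 0.775) and 0.30 ± 0.16 in B6 (adjusted p = 0.144). Cd70 thus had the same order at its top as Tnfsf9, with B6 CD8+ cDC under CpG first and NOD CD8+ cDC under CpG next. For Cd70 neither group overlapped the one after it. For Tnfsf9 the NOD group, at 7.75 or more, overlapped CpG-treated B6 CD11b+ cDC, which reached 7.85. The strain difference of the CpG change in CD8+ cDC was -1.28 ± 0.22 (adjusted p = 0.00132, and 0.00133 without a filter).

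Tnfsf9 and Cd70 are next to each other in the mouse genome: in the RefSeq annotation of GRCm38.p6, Cd70 is the next protein-coding gene after Tnfsf9 on chromosome 17, and Tnfsf14, which encodes the ligand LIGHT, comes after it. Tnfsf14 lay under the filter and was not tested. Its group means were 4.33 with CpG and 4.34 with PBS in NOD CD8+ cDC, and 4.54 with CpG and 4.38 with PBS in B6 CD8+ cDC. All 4 means lay under the array medians.

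Tnfsf4 and Tnfsf13b stayed low throughout, at 4.32 to 5.44 and 4.17 to 5.01 over the 24 arrays. The highest group for Tnfsf4 was again CpG-treated B6 CD8+ cDC, with 5.44, 5.27 and 5.24, against 4.98, 4.94 and 4.53 with PBS. NOD CD8+ cDC read 4.87, 4.72 and 4.75 with CpG, against 4.58, 4.80 and 4.55 with PBS, and overlapped. Tested without a filter, the Tnfsf4 difference was 0.50 ± 0.13 in B6 CD8+ cDC (adjusted p = 0.00273), 0.41 ± 0.13 in B6 CD11b+ cDC (adjusted p = 0.0196), 0.14 ± 0.13 in NOD CD8+ cDC (adjusted p = 0.517) and -0.06 ± 0.13 in NOD CD11b+ cDC (adjusted p = 0.894). The strain difference of that change did not pass in CD8+ cDC (-0.37 ± 0.18, adjusted p = 0.384) or in CD11b+ cDC (-0.47 ± 0.18, adjusted p = 0.22). Under CpG itself, NOD minus B6 was -0.54 ± 0.13 in CD8+ cDC (adjusted p = 0.00689 without a filter). In CD11b+ cDC it was -0.43 ± 0.13 (adjusted p = 0.0248 without a filter), and neither pair of groups overlapped. Under PBS the same differences were -0.17 ± 0.13 and 0.05 ± 0.13, with overlap. Tnfsf13b differed by -0.46 ± 0.14 in B6 CD11b+ cDC (adjusted p = 0.0234 without a filter) and by -0.09 to -0.01 in the other 3 CpG comparisons. Both genes stayed under the array median on every array, so these differences are given as values only.

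Ltb ran the other way. It was high in CD11b+ cDC and lower after CpG in 3 of the 4 strain and subset combinations, the exception being NOD CD11b+ cDC. There it read 10.66, 10.96 and 10.63 with CpG, against 10.38, 10.56 and 10.68 with PBS, and the groups overlapped. B6 CD11b+ cDC read 9.25, 9.14 and 9.62 with CpG, against 10.43, 10.26 and 10.43 with PBS, with a gap between the groups. In CD8+ cDC the values were 7.85, 8.82 and 8.34 with CpG, against 9.68, 9.30 and 8.90 with PBS in NOD mice. B6 CD8+ cDC read 7.23, 8.02 and 7.97 with CpG, against 8.63, 8.67 and 8.57 with PBS, and their CpG mean of 7.74 was the lowest of the 8 groups, overlapping CpG-treated NOD CD8+ cDC. The difference was -1.03 ± 0.22 in B6 CD11b+ cDC (adjusted p = 0.000531), -0.88 ± 0.22 in B6 CD8+ cDC (adjusted p = 0.00132), -0.96 ± 0.22 in NOD CD8+ cDC (adjusted p = 0.00113) and 0.21 ± 0.22 in NOD CD11b+ cDC (adjusted p = 0.595). The strains differed in this change in CD11b+ cDC by 1.24 ± 0.31 (adjusted p = 0.0193), a call that ended when any of 5 arrays was left out: PBS-treated B6 replicate 1 (adjusted p = 0.051), CpG-treated B6 replicates 1 (0.0526) and 2 (0.0585), PBS-treated NOD replicate 1 (0.0549) and CpG-treated NOD replicate 2 (0.0645). In CD8+ cDC the difference of the changes was -0.08 ± 0.31 (95% interval -0.71 to 0.55, adjusted p = 0.927).

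B cells and NK cells also express Ltb, so their markers are given beside it. B cell markers averaged 7.41 with CpG and 7.64 with PBS in NOD CD11b+ cDC, and 6.37 with CpG and 6.93 with PBS in B6 CD11b+ cDC. In CD8+ cDC they averaged 7.33 with CpG and 8.25 with PBS in NOD mice, and 6.27 with CpG and 6.81 with PBS in B6 mice. Of the 9 tested B cell markers, 3 fell after CpG in NOD CD8+ cDC, 2 in B6 CD8+ cDC, 1 in NOD CD11b+ cDC and 2 in B6 CD11b+ cDC, and 0 rose. In the same order 25.5%, 36.6%, 5.73% and 23% of all genes tested fell, and 15.1%, 21.1%, 9.7% and 15.9% rose. The counts of falls lie near those shares. NK cell markers averaged 9.66 (9.20 to 10.29 over the arrays) with CpG and 6.84 (6.52 to 7.28) with PBS in B6 CD11b+ cDC, where Ltb fell. In NOD CD11b+ cDC they averaged 6.75 with CpG and 5.68 with PBS. The part of B cells and NK cells in the Ltb values was not tested.

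**Figure D2:**
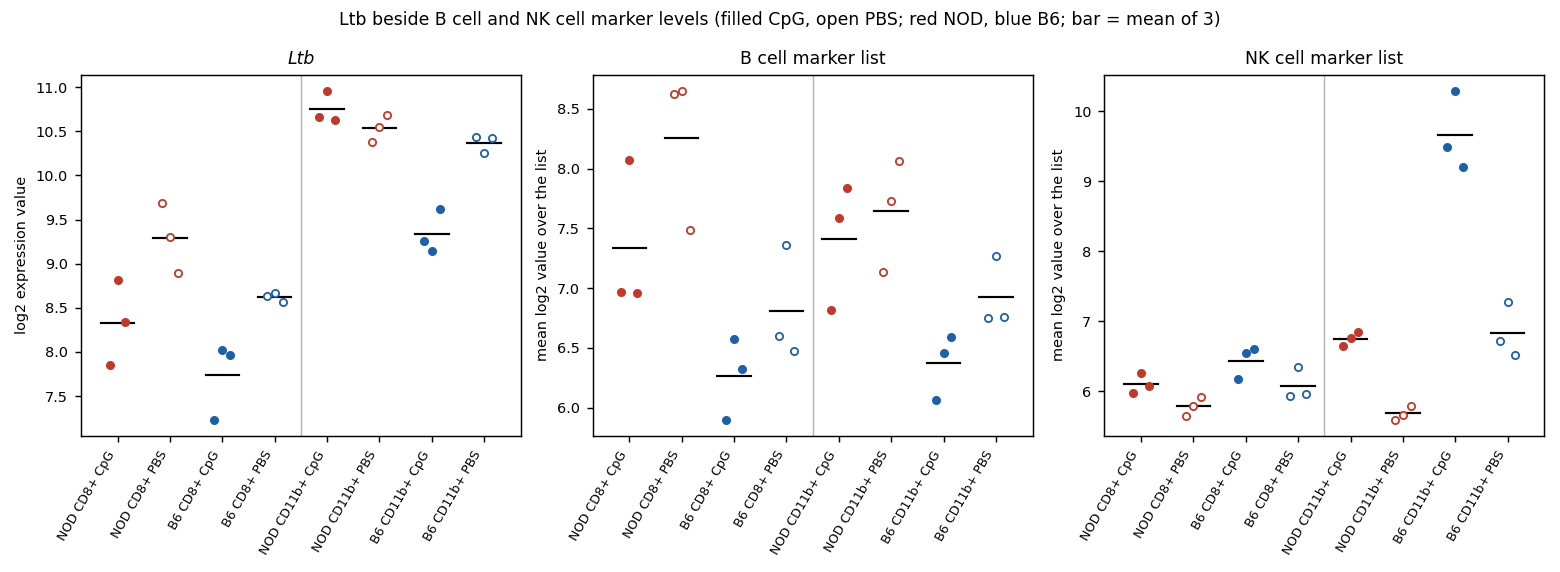
Left, the log2 expression value of Ltb on every array. Middle and right, the mean log2 value over the 9 measured B cell markers and the 11 NK cell markers on the same arrays, with bars at the mean of 3 arrays. Ltb was highest in NOD CD11b+ cDC at means of 10.75 with CpG and 10.54 with PBS, B cell markers were highest in PBS-treated NOD CD8+ cDC at 8.25, and NK cell markers in CpG-treated B6 CD11b+ cDC at 9.66.

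Ltb lies on chromosome 17 of GRCm38.p6 beside Tnf and Lta, the next 2 protein-coding genes in the RefSeq order. Neither neighbour fell. Tnf, an inflammatory cytokine, rose by 1.27 ± 0.21 in NOD CD11b+ cDC (adjusted p = 9.55e-05), 0.96 ± 0.21 in B6 CD11b+ cDC (adjusted p = 0.000732) and 0.88 ± 0.21 in NOD CD8+ cDC (adjusted p = 0.00176). In B6 CD8+ cDC it averaged 9.41 with CpG and 9.0 with PBS, which did not pass (adjusted p = 0.099). Lta, the partner of Ltb in the heterotrimer, rose by 2.12 ± 0.24 in B6 CD11b+ cDC (adjusted p = 2.11e-07), 1.34 ± 0.24 in NOD CD11b+ cDC (adjusted p = 0.000229) and 1.07 ± 0.24 in B6 CD8+ cDC (adjusted p = 0.000526). In NOD CD8+ cDC Lta averaged 6.47 with CpG and 5.94 with PBS and did not pass. NK cell markers averaged 9.66 with CpG and 6.84 with PBS in B6 CD11b+ cDC. The part of NK cells in the Tnf and Lta values was not tested. Because Ltb fell in 3 of the 4 CpG comparisons, the 250 bases before its RefSeq start are printed, from chr17:35194257-35194506 of GRCm38.p6, plus strand. The capitals mark the letters GGANTTTCC, an NF-kB type motif, which stand on the opposite strand, 87 to 79 bases before the start.
Ltb: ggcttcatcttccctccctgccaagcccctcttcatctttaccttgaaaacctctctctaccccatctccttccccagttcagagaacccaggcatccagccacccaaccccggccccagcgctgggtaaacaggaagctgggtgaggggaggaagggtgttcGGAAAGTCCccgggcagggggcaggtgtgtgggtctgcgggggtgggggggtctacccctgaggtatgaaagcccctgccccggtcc
These letters, searched on both strands, occur in 1.07% of the 32851 promoter windows of this length. The motifs were chosen after the sequences had been seen, and a match is a description of the letters only.

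Among the 8 genes, Tnfrsf4 had the largest rise with CpG in 3 of the 4 combinations, and in B6 CD8+ cDC Tnfsf9 rose more. CD8+ cDC already held more of it at rest, and CpG added to that in both subsets. It read 10.70, 10.63 and 10.15 in CpG-treated NOD CD8+ cDC, against 8.83, 8.27 and 8.11 with PBS. B6 CD8+ cDC read 10.75, 11.003 and 10.70 with CpG, against 8.51, 8.46 and 7.97 with PBS. In CD11b+ cDC the values were 8.43, 8.26 and 7.88 with CpG, against 6.98, 6.47 and 6.63 with PBS in NOD mice, and 8.92, 8.55 and 8.77 with CpG, against 7.35, 7.16 and 7.09 with PBS in B6 mice. CpG-treated CD11b+ cDC overlapped PBS-treated CD8+ cDC in NOD mice, and in B6 mice all 3 lay above them. The rise was 2.50 ± 0.19 or 5.67-fold in B6 CD8+ cDC (adjusted p = 3.32e-10), 2.09 ± 0.19 or 4.26-fold in NOD CD8+ cDC (adjusted p = 1.53e-08), 1.55 ± 0.19 in B6 CD11b+ cDC (adjusted p = 9.45e-07) and 1.49 ± 0.19 in NOD CD11b+ cDC (adjusted p = 3.73e-06). The strains did not differ in this change by a call, with -0.41 ± 0.27 in CD8+ cDC (95% interval -0.98 to 0.15) and -0.06 ± 0.27 in CD11b+ cDC (95% interval -0.62 to 0.51). The next gene on chromosome 4, Tnfrsf18, encodes the related receptor GITR and is named here as a neighbour, outside the rule for named genes. It rose by 1.23 ± 0.13 in B6 CD8+ cDC (adjusted p = 6.03e-08) and by 0.91 ± 0.13 in B6 CD11b+ cDC (adjusted p = 8.21e-06). In NOD CD8+ cDC Tnfrsf18 rose by 0.43 ± 0.13 (adjusted p = 0.0133), which was lost without CpG-treated NOD CD8+ replicate 1 (0.0776), without PBS-treated NOD CD8+ replicate 2 (0.0862) and in a fit of those groups alone (0.0975).

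TNF receptor 2, Tnfrsf1b, rose in all 4 combinations by less than 1 log2 unit. It read 9.67, 9.31 and 9.18 with CpG, against 9.05, 8.55 and 8.42 with PBS in NOD CD8+ cDC, and 9.44, 9.38 and 9.41 with CpG, against 8.70, 8.53 and 8.27 with PBS in B6 CD8+ cDC. In CD11b+ cDC it read 9.47, 9.27 and 9.23 with CpG, against 8.82, 8.70 and 8.76 with PBS in NOD mice, and 9.54, 9.36 and 9.52 with CpG, against 9.14, 8.78 and 8.98 with PBS in B6 mice. No CpG group overlapped its PBS group. The rise was 0.91 ± 0.15 in B6 CD8+ cDC (adjusted p = 1.62e-05), 0.71 ± 0.15 in NOD CD8+ cDC (adjusted p = 0.000536), 0.56 ± 0.15 in NOD CD11b+ cDC (adjusted p = 0.00955) and 0.51 ± 0.15 in B6 CD11b+ cDC (adjusted p = 0.00871). The call in NOD CD11b+ cDC was lost without its CpG-treated replicate 1 (adjusted p = 0.0659), and that in B6 CD11b+ cDC without its PBS-treated replicate 2 (adjusted p = 0.0538). TNF receptor 1, Tnfrsf1a, fell in B6 CD11b+ cDC alone by a call. It read 8.51, 8.69 and 8.76 with CpG, against 9.37, 9.09 and 9.37 with PBS there, a difference of -0.62 ± 0.15 (adjusted p = 0.00209). In NOD CD11b+ cDC it read 8.80, 8.59 and 8.61 with CpG, against 8.81, 8.44 and 8.85 with PBS. CD8+ cDC spanned 8.33 to 8.95 with CpG, against 8.87 to 9.25 with PBS, and differed by -0.32 ± 0.15 in NOD (adjusted p = 0.0953) and -0.33 ± 0.15 in B6 (adjusted p = 0.0676). The NOD difference passed without CpG-treated NOD CD8+ replicate 3 (adjusted p = 0.0198). The B6 difference passed after quantile normalization (0.028), with the replicate block (0.0395), and without CpG-treated B6 CD8+ replicate 2 (0.0435) or CpG-treated NOD CD8+ replicates 1 (0.0349) or 3 (0.0494). The difference between strains in CD11b+ cDC was 0.59 ± 0.21 and did not pass (adjusted p = 0.13), but did in a fit of those groups alone (adjusted p = 0.0478). Between the subsets of B6 mice the Tnfrsf1a change differed by 0.295 ± 0.214, which did not pass (adjusted p = 0.401). In B6 CD11b+ cDC, NK cell markers averaged 9.66 with CpG and 6.84 with PBS, and CD11b+ cDC markers 7.56 and 9.29. The part of such shifts in the Tnfrsf1a fall was not tested.

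The promoters of the TNF receptor genes are printed to set the receptor that rose in all 4 combinations beside the one that rose in 0. The first window is chr4:145246871-145247120, minus strand, and the second chr6:125349473-125349722, plus strand, both of GRCm38.p6 and ending at the base before the RefSeq start. The capitals mark GAAANNGAA, letters of the interferon-stimulated response element, which in Tnfrsf1b stand on the opposite strand 9 to 1 bases before the start.
Tnfrsf1b: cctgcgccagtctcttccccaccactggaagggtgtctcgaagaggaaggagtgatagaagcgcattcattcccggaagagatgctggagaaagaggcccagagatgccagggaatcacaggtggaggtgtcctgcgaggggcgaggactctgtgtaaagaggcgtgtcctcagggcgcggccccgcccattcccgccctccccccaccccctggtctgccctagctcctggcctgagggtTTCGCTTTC
Tnfrsf1a: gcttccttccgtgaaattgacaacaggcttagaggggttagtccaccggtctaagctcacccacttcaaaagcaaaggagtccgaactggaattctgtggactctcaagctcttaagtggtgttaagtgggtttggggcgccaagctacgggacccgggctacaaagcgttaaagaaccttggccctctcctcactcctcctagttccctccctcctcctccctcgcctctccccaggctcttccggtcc
This motif, searched on both strands, occurs in 7.13% of the 32851 windows. The window of Tnfrsf1a held 0 matches of either motif, which says only that these letters are not in it. RefSeq promoter entries were at hand for 5 of the 8 genes, and GAAANNGAA also stood in the window of Tnfrsf4 and in 1 of the 2 windows of Tnfsf13b, which are not printed.

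**Figure D3:**
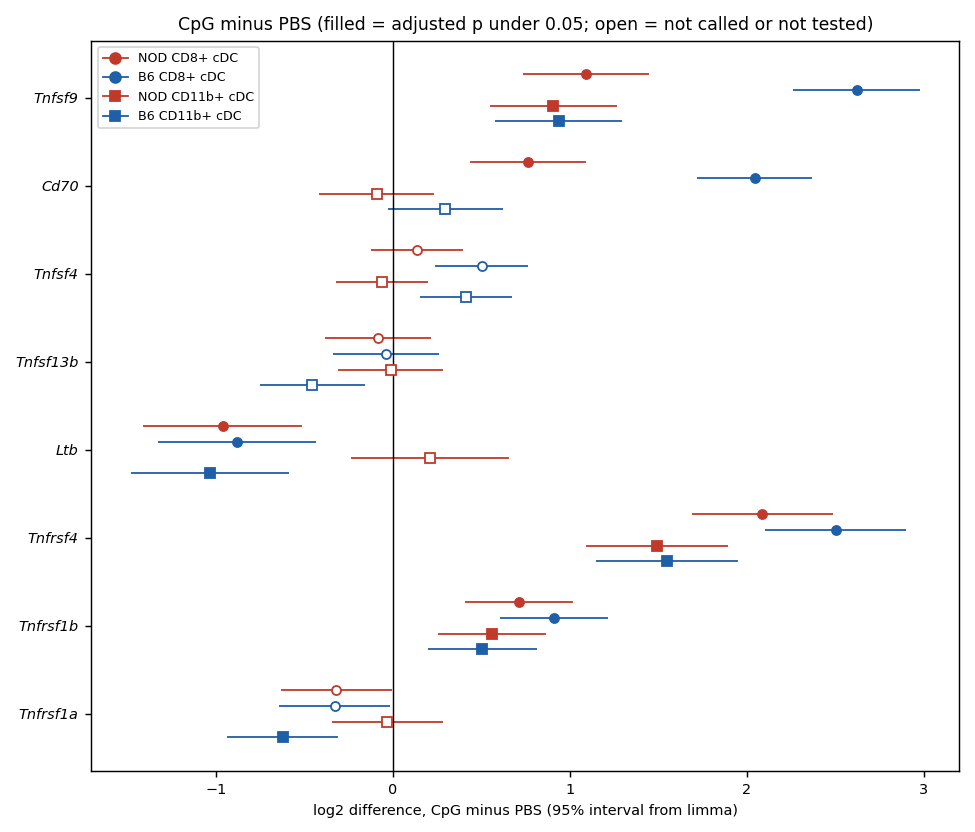
CpG minus PBS for the 8 genes as log2 differences with 95% intervals from limma, 4 comparisons per gene (red NOD, blue B6, circles CD8+ cDC, squares CD11b+ cDC). Filled symbols passed an adjusted p of 0.05 and open symbols did not pass or were not tested. Tnfsf9, Tnfrsf4 and Tnfrsf1b lie right of 0 in all 4 comparisons, between 0.51 and 2.62, and Ltb left of it in 3.

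Counted over the 8 genes, CpG gave 4 higher and 1 lower in NOD CD8+ cDC, beside 15.1% and 25.5% of all genes tested. In B6 CD8+ cDC the count was again 4 higher and 1 lower, beside 21.1% and 36.6%. In NOD CD11b+ cDC 3 were higher and 0 lower, beside 9.7% and 5.73%, and in B6 CD11b+ cDC 3 were higher and 2 lower, beside 15.9% and 23%. In each case 2 genes were not tested. The median difference over the 8 genes was 0.42 in NOD CD8+, 0.71 in B6 CD8+, 0.10 in NOD CD11b+ and 0.35 in B6 CD11b+ cDC, beside medians of -0.08, -0.10, -0.04 and -0.07 over all genes tested. The genes were chosen by name with earlier results known, so these counts describe them and test nothing.

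Between strains at rest few differences passed. In PBS-treated CD8+ cDC 0 of the 6 tested genes passed by limma, beside 2.03% of all genes higher and 1.59% lower. At an unadjusted p under 0.05 there were 2, Ltb (0.67 ± 0.22, adjusted p = 0.101) and Tnfsf9 (0.49 ± 0.17, adjusted p = 0.154). Ltb passed in a fit of those groups alone (adjusted p = 0.0282), without PBS-treated NOD replicate 3 (0.0371) and without CpG-treated NOD replicate 1 (0.0403). B cell markers were higher in NOD there, at 8.62, 8.65 and 7.49, against 6.60, 7.36 and 6.48 in B6, and 6 of the 9 passed, Cd79a among them (1.76, adjusted p = 0.0428). In PBS-treated CD11b+ cDC only Tnfrsf1a passed, lower in NOD (-0.58 ± 0.15, adjusted p = 0.0225), beside 3.18% of all genes lower and 2.41% higher. It read 8.81, 8.44 and 8.85 in NOD, against 9.37, 9.09 and 9.37 in B6. The call was lost without B6 replicate 1 (adjusted p = 0.111), B6 replicate 3 (0.0967) or NOD replicate 2 (0.167) of that sort. Tnfrsf4 had an unadjusted limma p of 0.0161 there (-0.50 ± 0.19, adjusted p = 0.167). In the same comparison 5 of the 11 NK cell markers and 5 of the 8 red pulp macrophage markers were lower in NOD. NK cell markers averaged 5.68 in NOD and 6.84 in B6, macrophage markers 7.14 in NOD and 8.47 in B6, and their part in the Tnfrsf1a difference was not tested.

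After CpG the strains separated in Tnfsf9 and Cd70 in CD8+ cDC and in Ltb in CD11b+ cDC. In CD8+ cDC Tnfsf9 was lower in NOD than in B6 (-1.04 ± 0.17, means 7.97 and 9.01, adjusted p = 0.000183) and so was Cd70 (-1.24 ± 0.16, means 6.10 and 7.34, adjusted p = 6.72e-06, and 4.59e-06 without a filter). These were 2 lower calls beside 7.84% of all genes tested, and 0 were higher beside 12.4%. Tnfrsf4 and Tnfrsf1b, which rose in both strains, differed by -0.32 ± 0.19 (adjusted p = 0.256) and -0.02 ± 0.15 (adjusted p = 0.935). Ltb averaged 8.33 in NOD and 7.74 in B6, a difference of 0.59 ± 0.22 that did not pass (adjusted p = 0.0564) but did with the replicate number as a block (adjusted p = 0.0407). Leaving out CpG-treated NOD replicate 1, the array of its group farthest along the first principal component, moved Ltb to 0.83 (adjusted p = 0.0037), and it also passed without B6 CpG replicates 2 (0.0464) or 3 (0.0404) or PBS-treated NOD replicates 1 (0.0462) or 3 (0.0458). 4 of the 9 B cell markers were higher in NOD here too, at 6.97, 8.07 and 6.96, against 5.90, 6.57 and 6.32 in B6, and their part in these differences was not tested. In CD11b+ cDC under CpG, Ltb was higher in NOD by 1.41 ± 0.22 or 2.66-fold, with means of 10.75 and 9.34 and no overlap (adjusted p = 3.63e-05, 13.9% of all genes higher). Tnfrsf1a, lower in NOD at rest, differed there by 0.01 ± 0.15 (adjusted p = 0.958). For Tnfrsf4 the gap was much the same at rest, at -0.50 ± 0.19 without overlap or a call (adjusted p = 0.167). Its CpG change differed between strains by only -0.06 ± 0.27 in these cells. Under CpG Tnfrsf4 was lower in NOD, at means of 8.19 and 8.75 (-0.56 ± 0.19, adjusted p = 0.0391, 9.22% of all genes lower). That call was lost without a filter (adjusted p = 0.0549), with arrays centred on their medians (0.0539), and without B6 replicate 1 (0.155), B6 replicate 3 (0.0906), NOD replicate 2 (0.0689) or NOD replicate 3 (0.197) of the CpG-treated CD11b+ arrays. Of the 11 NK cell markers 9 were lower in NOD in that comparison and 5 of the 9 B cell markers higher, and their part was not tested.

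Tnfrsf4 and Ltb differed between the subsets under each strain and injection, in opposite directions. At rest Tnfrsf4 was higher in CD8+ than in CD11b+ cDC by 1.71 ± 0.19 in NOD (means 8.41 and 6.70, adjusted p = 3.11e-07) and 1.12 ± 0.19 in B6 (means 8.31 and 7.20, adjusted p = 0.000114). Ltb was lower in CD8+ cDC in NOD (-1.24 ± 0.22, means 9.30 and 10.54, adjusted p = 0.000111) and in B6 (-1.75 ± 0.22, means 8.62 and 10.37, adjusted p = 1.2e-06). Under PBS 2 of the 8 genes were higher and 1 lower in NOD CD8+ cDC, beside 10.6% and 11.2% of all genes, and 1 was higher and 2 lower in B6 CD8+ cDC, beside 9.57% and 12.2%. The other resting calls were small. Tnfsf9 was higher in NOD CD8+ cDC by 0.56 ± 0.17 (adjusted p = 0.0217), lost without PBS-treated NOD CD8+ replicate 1 (adjusted p = 0.161) and PBS-treated NOD CD11b+ replicates 1 (0.0721) and 2 (0.0689). Tnfrsf1b was lower in B6 CD8+ cDC (-0.47 ± 0.15, adjusted p = 0.0249), lost without PBS-treated B6 CD8+ replicates 2 (adjusted p = 0.0511) and 3 (0.159) and PBS-treated B6 CD11b+ replicates 1 (0.131) and 3 (0.0663). Under CpG, Tnfsf9 was higher in CD8+ cDC by 1.44 ± 0.17 in B6 (adjusted p = 6.93e-07) and 0.74 ± 0.17 in NOD (adjusted p = 0.00156), and Cd70 by 1.89 ± 0.16 in B6 (adjusted p = 2.7e-09, and 1.21e-09 without a filter) and 0.91 ± 0.16 in NOD (adjusted p = 6.91e-05, and 6.49e-05 without a filter). Tnfrsf4 was then higher by 2.07 ± 0.19 in B6 (adjusted p = 1.66e-08) and 2.31 ± 0.19 in NOD (adjusted p = 2.01e-09), and Ltb lower, with -1.60 ± 0.22 in B6 (adjusted p = 3.69e-06) and -2.42 ± 0.22 in NOD (adjusted p = 5.61e-09). That made 3 higher and 1 lower in each strain, beside 12.8% and 24.5% of all genes in B6 and 14.5% and 24.1% in NOD. NK cell markers were lower in CD8+ than in CD11b+ cDC under CpG too, 11 of 11 in B6 and 5 of 11 in NOD, and their part in the Ltb difference was not tested.

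The subsets were also compared in their change with CpG. In B6, Tnfsf9 rose more in CD8+ than in CD11b+ cDC by 1.68 ± 0.25 (adjusted p = 5.44e-05) and Cd70 by 1.75 ± 0.22 (adjusted p = 1.16e-05, and 8.83e-06 without a filter). Tnfrsf4 rose more in B6 CD8+ cDC by 0.95 ± 0.27 (adjusted p = 0.0225), a call lost without any of 4 arrays: PBS-treated B6 CD8+ replicate 3 (0.0774), CpG-treated B6 CD8+ replicate 2 (0.065), PBS-treated B6 CD11b+ replicate 1 (0.0572) and CpG-treated B6 CD11b+ replicate 2 (0.066). With CpG in B6 mice, NK cell markers averaged 9.66 in CD11b+ and 6.44 in CD8+ cDC, and their part in these differences was not tested. In NOD, Tnfsf9 gained 0.18 ± 0.25 more in CD8+ cDC, which did not pass (adjusted p = 0.701), while Cd70 gained 0.85 ± 0.22 more (adjusted p = 0.0215, and 0.0274 without a filter). The NOD call for Cd70 was lost without PBS-treated CD8+ replicate 2 (0.0661), CpG-treated CD8+ replicate 2 (0.0636), PBS-treated CD11b+ replicate 1 (0.0595) or CpG-treated CD11b+ replicate 2 (0.0528), and in a fit of the NOD groups alone (0.0592). For Ltb the NOD subsets differed by -1.17 ± 0.31 (adjusted p = 0.0216), lost without PBS-treated CD8+ replicate 1 (0.0633), CpG-treated CD8+ replicate 1 (0.0635), PBS-treated CD11b+ replicate 1 (0.0583) or CpG-treated CD11b+ replicate 2 (0.0649), and in the NOD groups alone (0.0664). The gap between subsets under CpG was smaller in NOD than in B6 for Cd70 (-0.98 ± 0.22, adjusted p = 0.0089, and 0.00997 without a filter), and for Tnfsf9 the same quantity was -0.70 ± 0.25 without passing (adjusted p = 0.108), except without CpG-treated B6 CD8+ replicate 1 (0.0436). For Ltb it was -0.82 ± 0.31 (adjusted p = 0.138), and passed without CpG-treated B6 CD8+ replicate 1 (0.0313) or CpG-treated NOD CD8+ replicate 2 (0.0406). Of the 8 genes 3 passed in B6 and 2 in NOD in the test of the subsets' changes, beside 13.4% and 6.8% of all genes. Between strains 2 passed in CD8+ cDC and 1 in CD11b+ cDC, beside 4.02% and 4.38%. In the subset gap under CpG 1 passed, beside 5.3%, and under PBS 0 passed by limma, beside 0.882%. There 3 genes had an unadjusted p under 0.05, Tnfsf9 (0.80 ± 0.25, adjusted p = 0.198), Tnfrsf1a (adjusted p = 0.529) and Tnfrsf4 (adjusted p = 0.715).

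**Figure D4:**
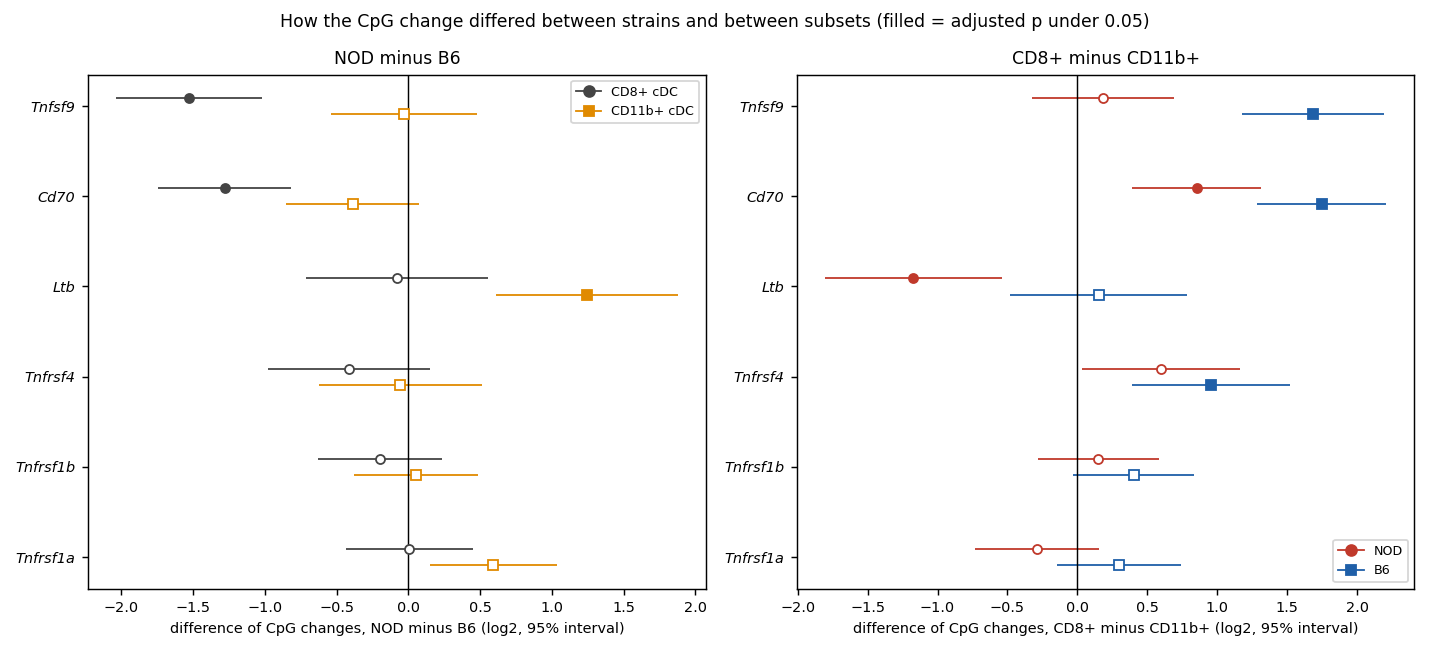
Differences of the CpG change for the 6 tested genes, as log2 values with 95% intervals. Left, NOD minus B6 in CD8+ (grey circles) and CD11b+ cDC (orange squares), and right, CD8+ minus CD11b+ cDC in NOD (red) and B6 (blue), filled where the adjusted p is under 0.05. Tnfsf9 and Cd70 lie at -1.53 and -1.28 between strains in CD8+ cDC, and Ltb at 1.24 in CD11b+ cDC.

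The binding partners of the 8 genes were read on the same arrays. 4-1BB (Tnfrsf9), the receptor of Tnfsf9, rose by 2.35 ± 0.12 in B6 CD11b+ cDC (means 8.40 and 6.04, adjusted p = 1.03e-12) and by 0.54 in NOD CD8+ (adjusted p = 0.00146) and 0.66 in B6 CD8+ cDC (adjusted p = 1e-04). In NOD CD11b+ cDC it rose by 0.41 ± 0.12 (adjusted p = 0.0239), lost without PBS-treated replicates 1 (0.0635) or 3 (0.0964) or CpG-treated replicates 1 (0.0657) or 2 (0.0786) of that sort. Its rise in CD11b+ cDC was smaller in NOD than in B6 (-1.94 ± 0.18, adjusted p = 3.68e-07). Cd27, which encodes the receptor of CD70, rose in B6 CD11b+ cDC (0.93 ± 0.18, means 6.999 and 6.07, adjusted p = 0.00023) and lay between 5.74 and 6.09 in the other 7 groups, close to the array median. The Fas ligand gene Fasl rose in the same comparison, by 2.53 ± 0.21 (adjusted p = 1.44e-09). Fasl was kept in 31 of the 32 other settings, and this call held in all 31, also without a filter. B6 CD11b+ cDC under CpG are the group in which NK cell markers averaged 9.66, and Ncr1, which marks NK cells, read 9.91 with CpG and 6.35 with PBS there. NK cells can express 4-1BB, CD27 and Fas ligand, and their part in these values was not tested. The BAFF receptors did not follow this pattern: Tnfrsf13b (TACI) fell in B6 CD11b+ cDC (-0.82 ± 0.15, adjusted p = 0.000164), Tnfrsf13c passed in 0 of the 4 CpG comparisons, with means of 7.03 to 7.92, and Tnfrsf17 was not tested, with means of 4.54 to 4.87. B cell markers averaged 6.37 with CpG and 6.93 with PBS in B6 CD11b+ cDC, and the part of B cells in the Tnfrsf13b fall was not tested. The lymphotoxin beta receptor, Ltbr, fell in B6 CD8+ cDC (-0.56 ± 0.15, means 6.66 and 7.22, adjusted p = 0.00285) and had means of 6.83 to 7.20 in the 6 other groups.

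**Figure D5:**
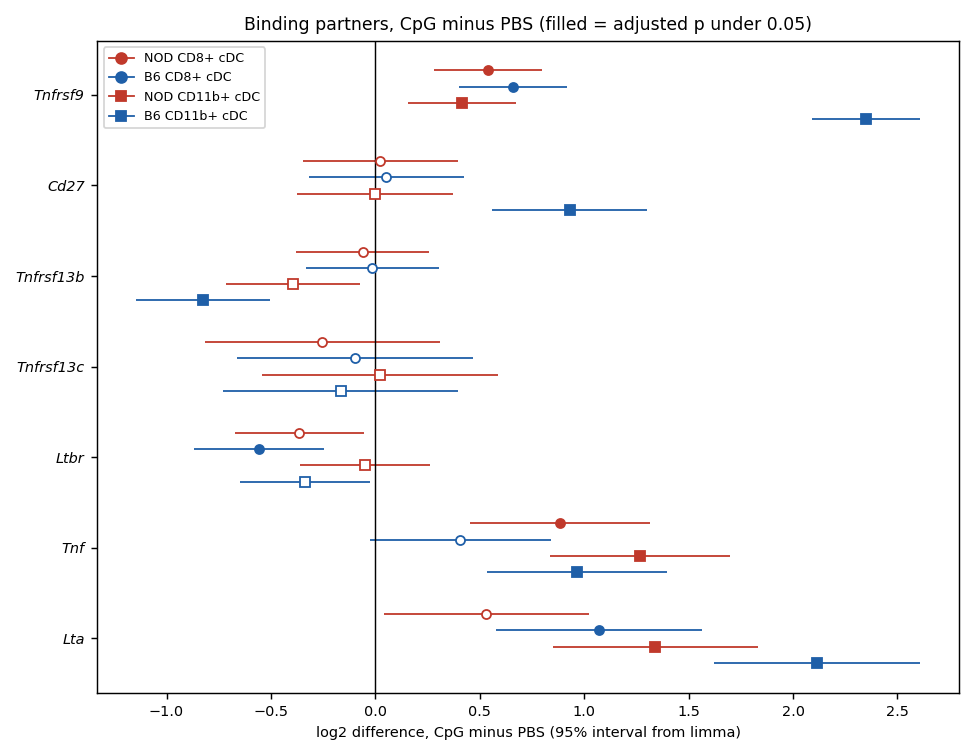
CpG minus PBS for receptors and ligands that bind the products of the 8 genes, as log2 differences with 95% intervals (red NOD, blue B6, circles CD8+ cDC, squares CD11b+ cDC, filled where the adjusted p is under 0.05). Tnfrsf9 in B6 CD11b+ cDC lies farthest right at 2.35, and Tnfrsf13b in the same cells farthest left at -0.82.

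Of 13 other TNF superfamily ligands 7 were tested, of which 3 rose in NOD CD8+, 3 in B6 CD8+, 5 in NOD CD11b+ and 5 in B6 CD11b+ cDC, and 0 fell. The shares of all genes tested that rose were 15.1%, 21.1%, 9.7% and 15.9% in the same order, and 25.5%, 36.6%, 5.73% and 23% fell, against which this count and those of the 3 lists that follow are to be read. Tnfsf10 (TRAIL), an inducer of apoptosis in target cells, rose by 1.72 ± 0.19 in NOD CD8+, 1.46 ± 0.19 in B6 CD8+, 2.14 ± 0.19 in NOD CD11b+ and 2.17 ± 0.19 in B6 CD11b+ cDC (adjusted p = 1.09e-06 or less). Tnfsf15 (TL1A), which co-stimulates T cells, rose most in B6 CD8+ cDC, by 2.08 ± 0.20 (adjusted p = 9.79e-09), and by 1.21 ± 0.20 in NOD CD8+ cDC (adjusted p = 4.54e-05). Under CpG it was lower in NOD than in B6 CD8+ cDC (-0.87 ± 0.20, means 7.06 and 7.94, adjusted p = 0.00344), which did not pass in a fit of those groups alone (0.0881). Tnfsf8 (CD30 ligand) was higher in NOD than in B6 CD11b+ cDC under CpG by 1.65 ± 0.22 (means 7.72 and 6.07, adjusted p = 8.22e-06), the same direction as Ltb. This call held in all 31 other settings that kept Tnfsf8, also without a filter. Unlike Ltb (0.17, adjusted p = 0.853), Tnfsf8 also had a strain call in CD11b+ cDC under PBS, which held in 27 of 31 settings. Of 25 other receptors 16 were tested: 6 rose and 3 fell in NOD CD8+, 7 rose and 4 fell in B6 CD8+, 5 rose and 2 fell in NOD CD11b+, and 7 rose and 3 fell in B6 CD11b+ cDC. Fas, a death receptor, rose by 1.91 ± 0.26 in NOD CD8+, 2.77 ± 0.26 in B6 CD8+, 1.41 ± 0.26 in NOD CD11b+ and 2.40 ± 0.26 in B6 CD11b+ cDC. Cd40, through which helper T cells license dendritic cells, rose by 1.56 ± 0.12, 2.13 ± 0.12, 1.67 ± 0.12 and 1.97 ± 0.12 in the same order, and Tnfrsf21 (DR6) fell in CD8+ cDC of NOD (-1.40 ± 0.21) and B6 mice (-1.58 ± 0.21). Adjusted p values for these calls of Fas, Cd40 and Tnfrsf21 were 0.000395 or less.

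Downstream of the receptors, 30 of 34 signalling genes were tested. Of these 18 rose and 2 fell in NOD CD8+, 21 rose and 4 fell in B6 CD8+, 14 rose and 0 fell in NOD CD11b+, and 18 rose and 1 fell in B6 CD11b+ cDC, with median differences of 0.63, 0.83, 0.36 and 0.55. Cflar, an inhibitor of caspase-8, rose by 1.65 ± 0.16 in NOD CD8+, 2.09 ± 0.16 in B6 CD8+, 1.41 ± 0.16 in NOD CD11b+ and 1.79 ± 0.16 in B6 CD11b+ cDC. Birc2, a ubiquitin ligase of the TNF receptor complex, rose by 1.31 ± 0.16 in NOD CD8+ and 1.82 ± 0.16 in B6 CD8+ cDC. Relb, the NF-kB subunit of the non-canonical pathway, rose by 1.41 ± 0.15 in NOD CD8+ and 1.79 ± 0.15 in B6 CD8+ cDC, and Traf1 by 1.33 ± 0.13 and 1.55 ± 0.13. Adjusted p values for these calls of Cflar, Birc2, Relb and Traf1 were 1.02e-06 or less. Of 7 genes that process ligands and receptors at the membrane 6 were tested, of which 2 rose and 1 fell in NOD CD8+, 2 rose and 3 fell in B6 CD8+, 2 rose and 1 fell in NOD CD11b+, and 2 rose and 0 fell in B6 CD11b+ cDC. In B6 CD8+ cDC, where 21.1% of all genes rose and 36.6% fell, these counts lie near the background. Sppl2a, an intramembrane protease that cleaves TNF family stubs, rose by 0.99 ± 0.11 in NOD CD8+, 1.22 ± 0.11 in B6 CD8+, 1.13 ± 0.11 in NOD CD11b+ and 1.33 ± 0.11 in B6 CD11b+ cDC. Adam17, the sheddase of TNF and its receptors, fell in CD8+ cDC of NOD (-0.75 ± 0.14, adjusted p = 0.000127) and B6 mice (-0.76 ± 0.14, adjusted p = 5.01e-05).

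The 6 tested genes did not share 1 pattern over the 8 group means. Tnfsf9 correlated with Cd70 (r = 0.902) and with Tnfrsf4 (r = 0.902), and Ltb ran against Tnfrsf4 (r = -0.86). These values cover 8 points that share injection and subset, and describe no relation beyond that. By the same measure the genes most like Cd70 were Zfp189 (r = 0.991), Tbl2 (0.990) and Npr1 (0.989), and those most like Tnfsf9 were Nuak2 (0.983), Fap (0.983) and Spdl1 (0.981). For Tnfrsf4 they were Niban1 (0.995), Map4 (0.994) and Lynx1 (0.994), and for Ltb Slain1 (0.997), Pla2g4a (0.995) and Ctso (0.992). For Tnfrsf1b they were Il21r (0.987), Ifi213 (0.986) and Oas3 (0.984). For Tnfrsf1a they were Timm13 (0.956), Maf1 (0.948) and Pop5 (0.946).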

How the data were processed

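The deposited values are log2 expression values, for which the submitters' processing notes name RMA and Partek as the authors' tools; versions are not given in the sources used here. The array name in the labels and the probe set IDs, which match a whole-transcript gene array, point to different models. RMA background correction and summarisation compress differences of dim probe sets. Of 35556 probe sets, 23410 were listed in the platform annotation, 21789 with 1 gene symbol and 1621 with several, which were left out, and 12146 were unnamed here. For the 999 genes with several probe sets the one with the highest mean was taken. All 24 arrays entered 1 limma fit (limma 3.58.1, R 4.3.3) of 8 group means with 16 residual degrees of freedom, empirical Bayes moderation with a trend, 2-sided tests and Benjamini-Hochberg adjustment over 11228 genes within each of 18 comparisons. The code was tested on simulated data. The number of arrays limits the precision.

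The genes and lists were chosen with earlier results of these data known. Besides the 8 genes, the text names up to 3 passing genes per list and comparison with the largest differences, the binding partners, the 3 genes most correlated with each over the group means, and markers. Replicate numbers in the titles were checked as pairs: all 3 same-numbered pairs deviated together (r above 0.1) in 8 of 12 pairwise comparisons, at 0.105 to 0.544. No source says what a number marks. Alternatives were other filters, quantile normalization, median centring, the mean over a gene's probe sets, a fit restricted to the groups compared, the replicate block, and each array left out.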

Additional observations from a re-analysis of the deposited data

Results flagged for a closer look

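These 9 differences between the CpG changes or subset gaps of 2 groups passed limma's test of the difference itself, as log2 values with n = 3 arrays per group. Between strains in CD8+ cDC (NOD minus B6), the CpG change differed by -1.53 ± 0.25 for Tnfsf9 (adjusted p = 0.000639) and by -1.28 ± 0.22 for Cd70 (adjusted p = 0.00132). Between strains in CD11b+ cDC it differed by 1.245 ± 0.306 for Ltb (adjusted p = 0.0193). Between the subsets of B6 mice (CD8+ minus CD11b+) it differed by 1.68 ± 0.25 for Tnfsf9 (adjusted p = 5.44e-05), 1.75 ± 0.22 for Cd70 (adjusted p = 1.16e-05) and 0.955 ± 0.273 for Tnfrsf4 (adjusted p = 0.0225). Between the subsets of NOD mice it differed by 0.855 ± 0.223 for Cd70 (adjusted p = 0.0215) and -1.17 ± 0.31 for Ltb (adjusted p = 0.0216). The subset gap under CpG differed between strains by -0.98 ± 0.22 for Cd70 (adjusted p = 0.0089). The calls for Ltb, for Tnfrsf4 and for Cd70 in NOD mice ended when single arrays were left out, as given above.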

How the results depend on the processing

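Among the 6 tested genes, 834 of 846 values under settings other than leaving out an array kept their direction and their side of the threshold. With 1 array left out, 2491 values kept both, 54 turned sign, 33 lost a call and 14 gained a call. The number of the 8 genes called moved by over 1.5 times as follows. Under a filter of 12 of 24 arrays, which removes Cd70, it went to 1 (from 2) for NOD against B6 CD8+ cDC under CpG, 1 (from 2) for the CpG change between strains in CD8+ cDC, 1 (from 2) for the CpG change between NOD subsets and 0 (from 1) for the subset gap under CpG. In fits of only the groups compared it was 1 (from 0) between strains in PBS-treated CD8+ cDC, 2 (from 1) for the CpG change between strains in CD11b+ cDC and 0 (from 2) for that between NOD subsets. It was 1 (from 2) between strains in CpG-treated CD11b+ cDC with arrays centred on their medians. With the replicate block it was 2 (from 1) between strains in PBS-treated CD11b+ cDC, where Tnfrsf4 passed (adjusted p = 0.0285), though these numbers did not pair by the check. In the comparisons that did pair, the block changed no call other than that of Ltb in CpG-treated CD8+ cDC (adjusted p = 0.0407). Uncalled values of Tnfrsf1a turned sign: -0.011 between strains in CpG-treated CD11b+ cDC after quantile normalization, and -0.018 between NOD subsets under CpG after centring. With 1 array left out, the count of the 8 genes called ranged from 0 to 1 between strains under PBS in CD8+ and in CD11b+ cDC, 2 to 3 in CpG-treated CD8+ cDC and 1 to 2 in CpG-treated CD11b+ cDC. It ranged from 2 to 3 with CpG in NOD CD11b+ cDC and between the subsets of NOD and of B6 mice under PBS. For the CpG change it ranged from 0 to 1 between strains in CD11b+ cDC, 0 to 2 between NOD subsets and 2 to 3 between B6 subsets, and for the subset gap under CpG from 1 to 3. Values that turned sign with 1 array left out all belonged to uncalled results. For Tnfrsf1a they ranged from -0.163 to 0.042 with CpG in NOD CD11b+ cDC, -0.107 to 0.06 between strains in PBS-treated and -0.178 to 0.133 in CpG-treated CD8+ cDC, -0.059 to 0.068 between strains in CpG-treated CD11b+ cDC, -0.139 to 0.172 between NOD and -0.031 to 0.18 between B6 subsets under CpG, -0.133 to 0.178 for the CpG change between strains in CD8+ cDC and -0.192 to 0.119 for the subset gap under CpG. For Tnfrsf1b they ranged from -0.016 to 0.3 between strains in PBS-treated and -0.165 to 0.082 in CpG-treated CD8+ cDC, -0.275 to 0.04 between NOD subsets under PBS, -0.079 to 0.169 under CpG, -0.032 to 0.151 for the CpG change between strains in CD11b+ cDC and -0.016 to 0.231 for the subset gap under CpG. For Cd70 they ranged from -0.043 to 0.182 between strains in PBS-treated CD8+ cDC, -0.031 to 0.194 between NOD subsets under PBS and -0.191 to 0.05 for the subset gap under PBS. For Tnfrsf4 they ranged from -0.122 to 0.238 between strains in PBS-treated CD8+ cDC and -0.174 to 0.099 for the CpG change between strains in CD11b+ cDC, for Tnfsf9 from -0.192 to 0.111 for that same change in CD11b+ cDC, and for Ltb from -0.335 to 0.162 for the CpG change between strains in CD8+ cDC. Over all genes, fits of only the groups compared gave 2584 calls (from 4567) with CpG in NOD CD8+ cDC, 390 (from 2270) between strains in CpG-treated CD8+ cDC, 2554 (from 4335) between NOD subsets under CpG, 303 (from 764) for the CpG change between NOD subsets, 164 (from 451) between strains in CD8+ and 945 (from 492) in CD11b+ cDC, and 181 (from 99) and 266 (from 595) for the subset gap under PBS and CpG. The replicate block gave 728 (from 451) and 766 (from 492) for the CpG change between strains in CD8+ and CD11b+ cDC, and the 12-array filter 51 (from 99) for the gap under PBS. Without a filter the median over all genes moved by 0.102 to 0.168 in 4 comparisons. The causes were not tested. Tnfsf4 and Tnfsf13b lay under every array median, so no filtered test could be made of them.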
